A study of Mus musculus with 12 samples.

Results

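The Wnt and planar polarity genes were followed across 3 transfections of B16-F10, a pigmented mouse melanoma line in wide use. Members were chosen by gene symbol among genes with a probe set listed under that symbol alone. These were all Wnt, Fzd, Dkk and Sfrp genes with a number, all Dvl, Axin, Prickle and Vangl genes, and Lrp5, Lrp6, Ctnnb1, Apc, Lef1, Tcf7l1, Tcf7l2, Nkd1, Ror1 and Ror2. The rule met 57 of the 18193 genes on the array, measured by 120 probe sets, and 18 of the members had 1 probe set. They were 19 ligands, 15 receptors and co-receptors, 8 secreted inhibitors, 8 relay genes, 3 nuclear factors and 4 planar polarity genes. Fzd10os, a noncoding RNA at the Fzd10 locus, was counted among the receptors because its symbol meets the rule.

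The cells carried the empty plasmid pMES, pMES with chicken FoxD3, or pMES with FoxD3-VP16. In FoxD3-VP16 the C-terminal repression domain of this forkhead factor is exchanged for an activation domain from VP16, a herpesvirus protein. In all 3 groups the chick beta-actin promoter drove the transcript, which also encoded EGFP behind an internal ribosome entry site, and cells making EGFP were sorted 24 h later. The inserted FoxD3 is chicken sequence, so probes for mouse Foxd3 do not check the labels. Each group held 4 one-colour arrays, numbered 1 to 4. The comparisons show how the pathway's transcripts stood with FoxD3 and whether they stood elsewhere when its repression domain was replaced. The labels do not say whether the 4 arrays of a group came from separate cultures, so p-values rest on the spread between arrays, and that spread could be technical.

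Wnt proteins are secreted ligands that bind Frizzled receptors together with the co-receptors Lrp5 and Lrp6. In the canonical branch, Dishevelled proteins then hold back the Axin and Apc complex that destroys beta-catenin, and beta-catenin joins TCF and LEF factors on target genes. In the planar polarity branch, Frizzled, Dishevelled, Prickle, Vangl and Celsr proteins align cells and steer their movement. Wnt signals induce neural crest cells, from which melanocytes derive, and Mitf, the leading regulator of melanocytes, is a known target of the canonical branch.

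Levels are given as quantile-normalized log2(intensity + 16), a scale that understates changes of dim genes, and a difference of 1 on it is a doubling of intensity + 16. Levels of different genes come from different probes and cannot be set against each other. Tests covered the 10916 genes above the lowest 40% by mean (limit 5.98 on the log2 scale), and 33 of the 57 members were among them. A gene was called where limma's p, adjusted by Benjamini-Hochberg over the 10916 genes, was under 0.05. FoxD3 and FoxD3-VP16 were compared with the same 4 empty-vector arrays, and the comparison of FoxD3-VP16 with FoxD3 reuses those 8 arrays, so the 3 comparisons are not independent of each other. Arrays with the same replicate number deviated together, so limma was also run with that number as a block. The blocked fit is quoted where it changes a call of a member, or of a pathway or target gene named below. For the unnamed genes of those lists, such as Celsr2, it enters only the counts.

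The 3 arrays numbered 1 stood apart from the other 9 in their 18S control, with log2 values of 12.83 to 13.07 against 9.31 to 10.1, and in their hybridization controls (14.53 to 14.75 against 11.81 to 13.07). The log2 difference between the 3' and 5' probe sets of Gapdh, which reflects RNA and labelling quality, was 0.56 to 0.77 against -0.25 to 0.04. Their median log2 values before quantile normalization were 6.742 to 6.940 against 6.149 to 6.285. All 8 melanocyte markers on the array were tested, and their summed intensities were 210200 to 237000 with the empty vector, 183600 to 208900 with FoxD3 and 191600 to 216800 with FoxD3-VP16. Single markers went in both directions: 1 rose and 1 fell with FoxD3 (2.89% and 1.12% of all genes tested), and 1 fell with FoxD3-VP16 (0.0733%). Between the FoxD3 forms 2 were higher and 1 lower with FoxD3-VP16 (4.44% and 5.13%). Sox10 read 12.59 to 12.74 with the empty vector, 13.27 to 13.50 with FoxD3 and 11.76 to 12.10 with FoxD3-VP16. Mitf and Tyr went the other way with FoxD3. Mitf read 13.15 to 13.64, 11.80 to 12.66 and 12.92 to 13.06 in the same order, and Tyr 13.31 to 14.15, 12.18 to 13.10 and 13.20 to 13.94. Of 8 fibroblast markers, 4 lay below the brightness limit (Col3a1, Dcn, Lum and Thy1). Of the other 4, Col1a1 (log2 change 2.68) and Pdgfrb (1.84) rose with FoxD3, and Pdgfrb (1.60) with FoxD3-VP16. Pdgfra (1.21) and Col1a2 (-0.72, lower in 4 of 4 pairs) were not called with FoxD3 (adjusted p = 0.0672 and 0.448). The summed intensity of the 8 was 446 to 632 with the empty vector, 1097 to 1385 with FoxD3 and 821 to 1156 with FoxD3-VP16, and its part in the results below was not tested. In sorted bulk samples, fewer cells of a type and less RNA per cell cannot be told apart.

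RefSeq promoter windows, the 250 bases before a transcript start on GRCm38.p6, were at hand for 39 of the 57 member genes, as 51 windows. The following 4 belong to the planar polarity genes and receptors whose levels moved with a vector. Prickle1 lies on chr15:93595903-93596152 (minus strand), the second listed start of Prickle2 on chr6:92567367-92567616 (minus strand), Fzd7 on chr1:59481897-59482146 (plus strand) and Fzd5 on chr1:64737751-64738000 (minus strand). Prickle1 has 1 further window and Prickle2 has 3, none of which holds the letters searched for, and the Prickle2 window shown was chosen for its match. Capitals mark the letters CTTTGAT, a form of the TCF and LEF motif.
Prickle1: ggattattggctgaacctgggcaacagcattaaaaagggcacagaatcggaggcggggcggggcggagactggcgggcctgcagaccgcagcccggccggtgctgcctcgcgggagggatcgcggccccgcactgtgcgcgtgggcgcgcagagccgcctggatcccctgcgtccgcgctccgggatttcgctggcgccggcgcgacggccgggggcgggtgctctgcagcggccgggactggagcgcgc
Prickle2: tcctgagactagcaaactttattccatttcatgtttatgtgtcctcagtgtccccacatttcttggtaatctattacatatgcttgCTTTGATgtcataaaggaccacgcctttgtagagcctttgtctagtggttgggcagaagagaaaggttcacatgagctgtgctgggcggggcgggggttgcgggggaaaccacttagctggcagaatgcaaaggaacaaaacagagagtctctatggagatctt
Fzd7: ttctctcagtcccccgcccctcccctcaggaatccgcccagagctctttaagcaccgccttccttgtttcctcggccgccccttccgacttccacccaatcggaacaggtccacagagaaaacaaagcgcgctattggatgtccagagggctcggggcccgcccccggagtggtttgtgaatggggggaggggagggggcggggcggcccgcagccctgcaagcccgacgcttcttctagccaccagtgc
Fzd5: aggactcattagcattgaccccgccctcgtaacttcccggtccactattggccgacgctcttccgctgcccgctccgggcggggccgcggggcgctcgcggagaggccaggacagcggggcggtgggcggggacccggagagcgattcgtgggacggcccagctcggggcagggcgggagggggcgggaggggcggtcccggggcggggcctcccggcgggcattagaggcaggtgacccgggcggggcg
The match in the Prickle2 window lay at -164 to -158 from its start. Both strands were searched for the forkhead motif as TGTTTAC or TGTTTGT and for the TCF and LEF motif as CTTTGAT or CTTTGAA. The forkhead letters occurred in 1 of the 51 member windows (1.96%, in Dkk1), against 8.74% of all 32851 windows. The TCF and LEF letters occurred in 4 member windows (7.84%, in Prickle2, Wnt5b, Wnt11 and Dkk1), against 7.48% of all windows. A match describes letters in a window and is not a binding site, and letters that are missing from these windows say nothing of other sequence.

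Members were called in all 3 comparisons. With FoxD3 against the empty vector, 2 of the 33 tested members were called (6.06%, against 4.01% of all genes tested): Fzd5 rose (1 member, against 2.89% of all genes) and Prickle1 fell (1 member, against 1.12%). With FoxD3-VP16 against the empty vector, Prickle2 and Fzd7 rose (2 of 33, 6.06%, against 0.595% of all genes tested), where 0.522% of all genes rose and 0.0733% fell. Between FoxD3-VP16 and FoxD3, 7 of 33 members differed (21.2%, against 9.57%): Prickle1, Prickle2, Fzd7, Fzd2 and Tcf7l2 were higher with FoxD3-VP16, and Fzd5 and Dvl2 were lower. Of all genes, 4.44% were higher and 5.13% lower there.

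The block moved these counts, and the background moved with them. With FoxD3 against the empty vector it called 9 members (7 up, 2 down), against 21.0% of all genes (11.8% up, 9.21% down). With FoxD3-VP16 against the empty vector it called 6 (5 up, 1 down), against 11.1% (5.73% up, 5.41% down). Between FoxD3-VP16 and FoxD3 it called 14 (8 up, 6 down), against 32.0% (14.6% up, 17.5% down). Array weights, with no block, also called the differences that the blocked fit adds for Wnt9a, Lrp6, Axin2, Dvl1, Dvl2, Lef1, Tcf7l1, Vangl2 and Fzd2, except that of Dvl1 between FoxD3-VP16 and the empty vector. That setting called many genes of any kind: 4193, 3465 and 4455 of the 10916 tested in the 3 comparisons, and 15, 13 and 19 of the 33 members.

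The 4 arrays of both groups did not overlap for 6 members with FoxD3 against the empty vector (11.5% of all genes tested), for 3 with FoxD3-VP16 against the empty vector (5.71%) and for 8 between the FoxD3 forms (18.2%). In the 3 comparisons, 12, 8 and 10 of the 33 tested members were higher in 4 of 4 pairs of equal number. Lower in 4 of 4 pairs were 5, 3 and 10. The share of all genes with 4 of 4 pairs in 1 direction was not computed. The median change of the tested members was 0.09, 0.08 and -0.01 in the 3 comparisons, beside -0.00, -0.02 and -0.03 over all genes tested. Their median absolute change was 0.42, 0.31 and 0.39, beside 0.23, 0.19 and 0.27. The median share of a gene's variance that went with the vector was 28.8% for members and 22.3% for all genes tested, and the share that went with the replicate number was 41.1% and 49.0%.

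**Figure D1:**
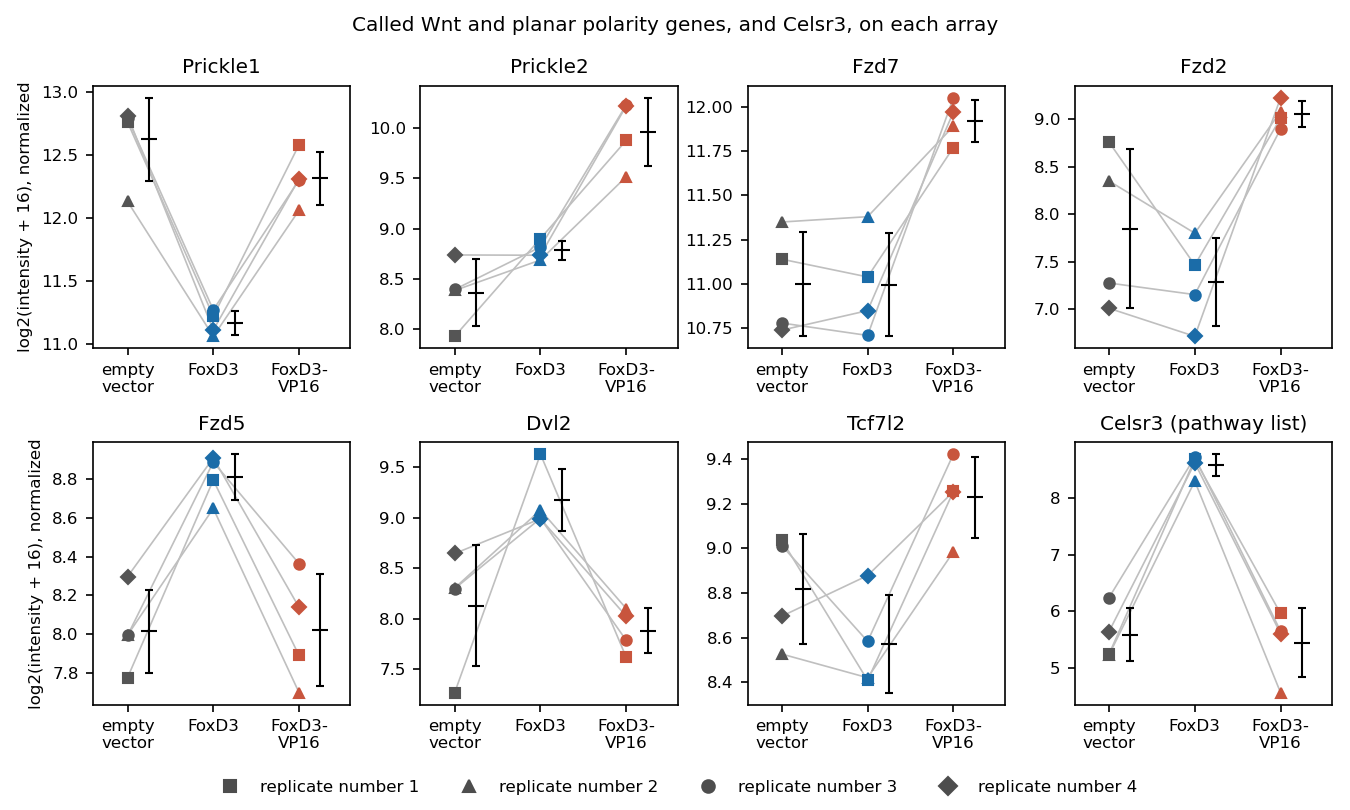
Normalized log2(intensity + 16) on each of the 12 arrays for the 7 members called without a block, and for Celsr3, a pathway gene that is not a member. Grey lines join arrays of the same replicate number, and bars give the mean and SD of 4 arrays. Prickle1 sits between 11.06 and 11.27 with FoxD3, below all other arrays, while Prickle2 and Fzd7 are highest on the 4 FoxD3-VP16 arrays.

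The planar polarity genes were all bright enough to be tested, and the paralogues Prickle1 and Prickle2 were each called: Prickle1 was lower with FoxD3, and Prickle2 was higher with FoxD3-VP16. Prickle1, a cytoplasmic core protein of planar polarity (probe set 1452249_at), read 12.76, 12.13, 12.79 and 12.81 on the empty-vector arrays, 11.22, 11.06, 11.27 and 11.11 with FoxD3, and 12.58, 12.06, 12.30 and 12.31 with FoxD3-VP16. All 4 FoxD3 arrays lay below the other 8, and the other 2 groups overlapped. The change with FoxD3 was -1.46 (SE 0.17, adjusted p = 0.000502 by limma), lower in 4 of 4 pairs of equal number. FoxD3-VP16 exceeded FoxD3 by 1.15 (adjusted p = 0.000866) and differed from the empty vector by -0.31 (95% interval -0.67 to 0.05, adjusted p = 0.589). The latter difference was negative in 4 of 4 pairs, and limma with array weights called it at -0.50 (adjusted p = 0.00133). Vector accounted for 90.5% of the variance of Prickle1.

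Prickle1 has a further pair of probe sets. That with a mean of 6.22, near the brightness limit, changed by -0.41 with FoxD3 and by 0.92 between the FoxD3 forms, and the dimmest (mean 5.16) changed by 0.50 and -0.04. With the mean of all probe sets in place of the brightest, both Prickle1 calls were lost (adjusted p = 0.425 and 0.129).

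Prickle2, the paralogue with the same role and a single probe set (1428808_at), read 7.93, 8.39, 8.40 and 8.74 with the empty vector, 8.90, 8.69, 8.82 and 8.74 with FoxD3, and 9.88, 9.52, 10.23 and 10.22 with FoxD3-VP16. The FoxD3-VP16 arrays lay above all 8 others. The rise with FoxD3-VP16 over the empty vector was 1.60 (SE 0.21, adjusted p = 0.00393), a 3.03-fold difference, in 4 of 4 pairs. Over FoxD3 the difference was 1.17 (adjusted p = 0.00304), and both calls held under all 23 alternatives. FoxD3 itself differed from the empty vector by 0.42 (95% interval -0.02 to 0.87, adjusted p = 0.344).

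Vangl2, the membrane protein that binds Prickle, read 9.68, 8.95, 8.92 and 8.89 with the empty vector, 10.54, 9.37, 9.38 and 9.38 with FoxD3, and 9.67, 8.97, 8.94 and 9.20 with FoxD3-VP16. The arrays numbered 1 were highest in every group, and within each number the FoxD3 array was the highest of the 3. Vangl2 was higher with FoxD3 than with the empty vector by 0.56 and lower with FoxD3-VP16 than with FoxD3 by 0.47 on the log2 scale. Adjusted p was 0.00937 and 0.0145 in the blocked fit, and 0.378 and 0.373 without the block. Without the array FoxD3 1 the differences were 0.27 and -0.18. A second probe set (mean 8.55) changed by 0.06 and 0.17, the latter in the other direction, and the dimmest (mean 6.78) by 0.35 and -0.20. Its paralogue Vangl1 ranged from 7.67 to 8.97 over the 12 arrays and was called in no comparison, with changes of -0.21, 0.10 and 0.31.

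**Figure D2:**
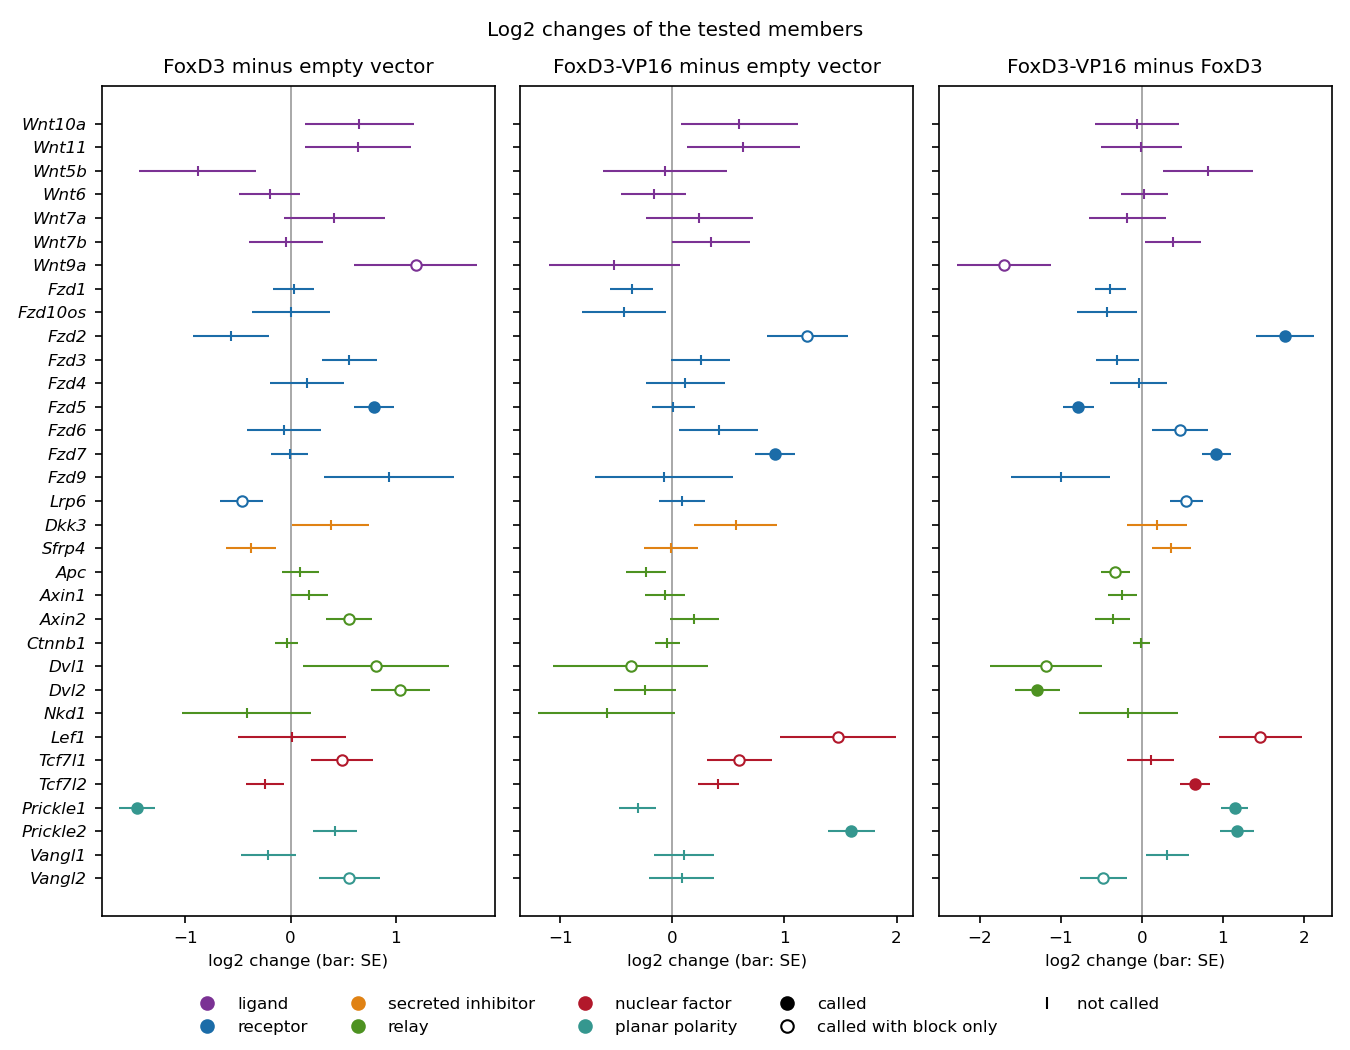
Log2 change of each of the 33 tested members in the 3 comparisons, ordered by role, with bars of the standard error from limma. Filled points passed without a block. Fzd7 and Prickle2 stand to the right of 0 in both comparisons of FoxD3-VP16, and Prickle1 stands at -1.46 with FoxD3.

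Among the receptors, 10 of 15 were tested, and Fzd7, Fzd2 and Fzd5 were called. Fzd7, a Frizzled of both branches (probe set 1450044_at), read 11.14, 11.35, 10.78 and 10.74 with the empty vector, 11.04, 11.38, 10.71 and 10.85 with FoxD3, and 11.77, 11.89, 12.05 and 11.97 with FoxD3-VP16. Its 4 FoxD3-VP16 arrays exceeded the 8 others, among which empty vector and FoxD3 overlapped. The rise was 0.92 over the empty vector (SE 0.18, adjusted p = 0.0371) and 0.92 over FoxD3 (adjusted p = 0.00534), in 4 of 4 pairs each. FoxD3 differed from the empty vector by -0.01 (95% interval -0.39 to 0.38).

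The rise over the empty vector was not called (adjusted p 0.0508 to 0.161) without any 1 of 9 arrays: empty vector 1, 3 or 4, FoxD3 3 or 4, or FoxD3-VP16 1, 2, 3 or 4. It also missed the threshold without an intensity trend (0.0584). A dimmer Fzd7 probe set (mean 6.08) changed by 0.09, -0.03 and -0.11 in the 3 comparisons. With the mean of both probe sets neither Fzd7 difference was called (adjusted p = 0.684 and 0.453).

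Fzd2, also a Frizzled receptor (probe set 1418532_at), read 8.76, 8.35, 7.28 and 7.01 with the empty vector, 7.46, 7.80, 7.15 and 6.71 with FoxD3, and 9.01, 9.08, 8.90 and 9.22 with FoxD3-VP16. The FoxD3-VP16 values spanned 8.90 to 9.22, above all others, whereas the empty-vector arrays were spread from 7.01 to 8.76. Fzd2 was higher with FoxD3-VP16 than with FoxD3 by 1.77 (SE 0.36, adjusted p = 0.00777), and this call held under all 22 alternatives. Over the empty vector it was higher by 1.20, with an adjusted p of 0.0137 in the blocked fit and 0.216 without the block. The 3 Fzd2 probe sets gave differences of 1.77, 1.77 and 1.33 between the FoxD3 forms.

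Fzd5, a further Frizzled (probe set 1455604_at), moved the other way between the FoxD3 forms. It read 7.78, 7.996, 7.994 and 8.30 with the empty vector, 8.79, 8.65, 8.89 and 8.91 with FoxD3, and 7.89, 7.70, 8.36 and 8.14 with FoxD3-VP16. The FoxD3 arrays were the 4 highest, and the other 2 groups overlapped. The rise with FoxD3 was 0.79 (SE 0.19, adjusted p = 0.0352), and FoxD3-VP16 stood 0.79 below FoxD3 on the log2 scale (log2 change -0.79, adjusted p = 0.0211). A second, dim probe set (mean 5.55) changed by 1.44 and -2.32 in these comparisons.

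Calls of Fzd5 depended on single arrays. The rise with FoxD3 was not called (adjusted p 0.0547 to 0.123) without any 1 of empty vector 1, 2 or 3, FoxD3 1, 2, 3 or 4, or FoxD3-VP16 4. It was also lost with no filter on dim genes (0.0924) and without the 3 arrays numbered 1 (0.0504). The difference between the FoxD3 forms was lost without FoxD3 3 (0.0695), FoxD3 4 (0.0746) or FoxD3-VP16 2 (0.0633), and with no filter (0.0545).

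The co-receptor Lrp6 read 11.39, 10.79, 10.80 and 11.04 with the empty vector, 10.93, 10.45, 10.35 and 10.42 with FoxD3, and 11.58, 10.74, 10.98 and 11.07 with FoxD3-VP16. Within each number the FoxD3 array was the lowest of the 3, while the groups overlapped because the arrays numbered 1 were higher. Lrp6 differed by -0.47 with FoxD3 and by 0.55 between FoxD3-VP16 and FoxD3, with adjusted p of 0.00332 and 0.000582 in the blocked fit and 0.281 and 0.119 without the block. Without the 3 arrays numbered 1 both differences were called with no block (0.0480 and 0.0197). A dimmer Lrp6 probe set (mean 7.65) gave -0.20 and 0.15.

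The 6 other tested receptors (Fzd1, Fzd3, Fzd4, Fzd6, Fzd9 and Fzd10os) were not called without the block (adjusted p 0.249 to 0.999), with changes from -1.004 to 0.931. Fzd6, a planar polarity Frizzled, was higher with FoxD3-VP16 than with FoxD3 by 0.47, which passed with the block (adjusted p = 0.0136, against 0.483). The 5 untested receptors Lrp5, Fzd8, Fzd10, Ror1 and Ror2 had means between 4.73 and 5.61.

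**Figure D3:**
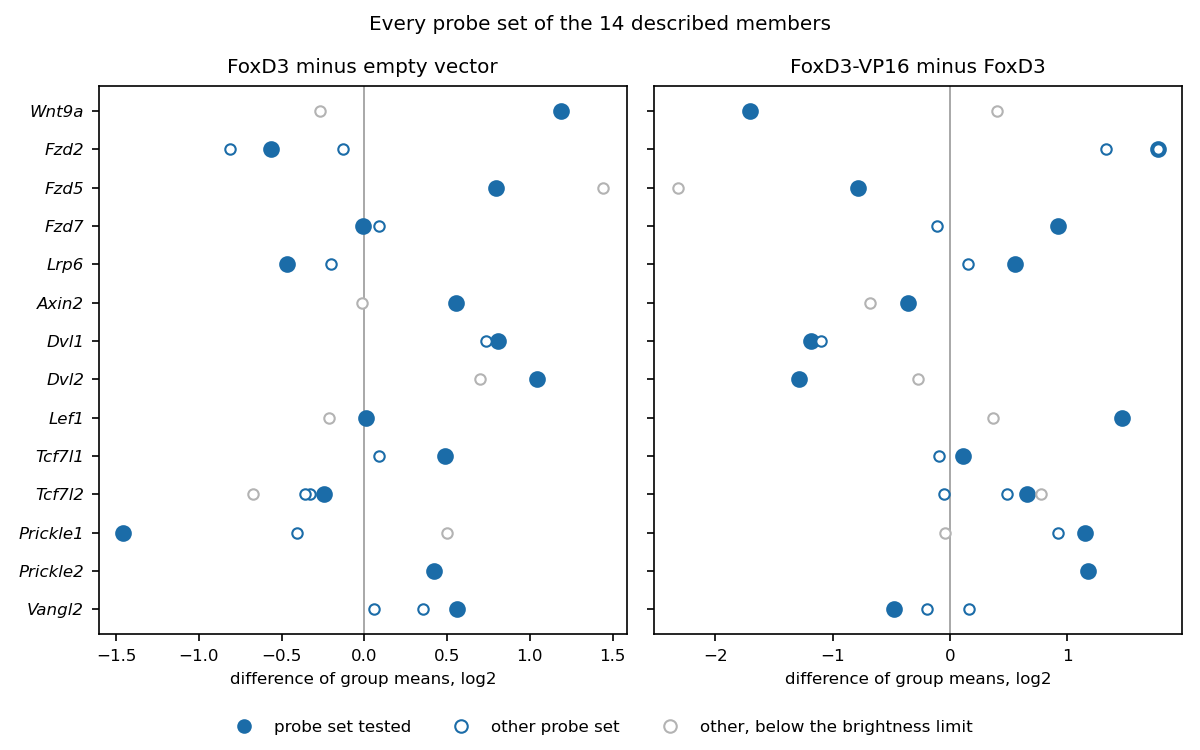
Log2 change of each probe set of the described members with FoxD3 against the empty vector and between the FoxD3 forms. The brightest probe set, taken for the tests, is filled. The 3 Fzd2 probe sets lie at 1.33 to 1.77 between the FoxD3 forms, whereas the dimmer Fzd7 probe set stays near 0.

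Of the relay genes, 7 of 8 were tested, and the Dishevelled genes Dvl1 and Dvl2, whose proteins pass the signal from Frizzled in both branches, read higher on the FoxD3 array than on the empty-vector array of the same number in 4 of 4 pairs. The same was true of Apc, Axin1 and Axin2, and so of 5 of the 7. Dvl2 (probe set 1417207_at) read 7.27, 8.30, 8.30 and 8.65 with the empty vector, 9.63, 9.08, 8.99 and 8.99 with FoxD3, and 7.62, 8.10, 7.79 and 8.02 with FoxD3-VP16. The 4 FoxD3 arrays lay above the 8 others. Dvl2 was lower with FoxD3-VP16 than with FoxD3 by 1.29 on the log2 scale (log2 change -1.29, SE 0.28, adjusted p = 0.0107), and 4 of 4 pairs went that way.

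The difference of 1.04 in Dvl2 between FoxD3 and the empty vector missed the threshold without the block (adjusted p = 0.0558) and passed with it (0.0113). It also passed without the array empty vector 4 (0.0483), on the values as deposited (0.0388) and with a pseudocount of 64 (0.0451). Without the 3 arrays numbered 1 it passed at a smaller size of 0.62 (0.0438), and with array weights at 0.49 (0.00842). With the mean of both probe sets, the dimmer of which has a mean of 5.20, the call between the FoxD3 forms was lost (0.188).

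Dvl1 read 13.67, 11.68, 11.28 and 11.26 with the empty vector, 14.37, 12.18, 12.28 and 12.29 with FoxD3, and 13.49, 11.25, 10.70 and 10.95 with FoxD3-VP16. Its arrays numbered 1 stood 2.30 above the others on average, and those same arrays stood apart in the 18S and hybridization controls. Within each number the order was FoxD3, empty vector, FoxD3-VP16. The differences of 0.81, -0.37 and -1.18 in the 3 comparisons had adjusted p of 0.000212, 0.0420 and 5.17e-06 in the blocked fit, and 0.664, 0.946 and 0.347 without the block. Without the 3 arrays numbered 1 the first and the last were called with no block (0.0128 and 0.000697). Unblocked, the difference with FoxD3 was 1.36 without empty vector 1 and 0.28 without FoxD3 1, and that between the FoxD3 forms was -0.65 without FoxD3 1 and -1.79 without FoxD3-VP16 1. A second probe set of Dvl1 gave 0.73, -0.37 and -1.10.

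Axin2, a scaffold of the destruction complex and itself a target of canonical Wnt signals, read 8.26, 7.95, 8.11 and 8.11 with the empty vector, 8.85, 8.49, 8.55 and 8.77 with FoxD3, and 8.87, 7.81, 8.30 and 8.24 with FoxD3-VP16. All 4 FoxD3 arrays exceeded the 4 empty-vector arrays, by 0.55 on average. Adjusted p was 0.0280 in the blocked fit and 0.209 without the block. A dim second probe set (mean 4.96) changed by -0.01. The FoxD3-VP16 arrays were spread from 7.81 to 8.87 and overlapped both groups.

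Ctnnb1, the gene of beta-catenin, ranged from 14.74 to 15.07 over the 12 arrays, and replicate number took 93.6% of its variance. Its changes were -0.04 with FoxD3 (95% interval -0.27 to 0.20), -0.04 with FoxD3-VP16 (-0.28 to 0.19) and -0.01 between them (-0.24 to 0.23). The scaffold genes Apc and Axin1 ranged from 10.63 to 11.46 and from 9.19 to 9.96. Between the FoxD3 forms Apc was lower with FoxD3-VP16 in 4 of 4 pairs (log2 change -0.33), which passed with the block (adjusted p = 0.0108, against 0.301). Axin1 and Nkd1, an inhibitor that binds Dishevelled, were called in no comparison. Dvl3 had a mean of 4.92 and was not tested.

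**Figure D4:**
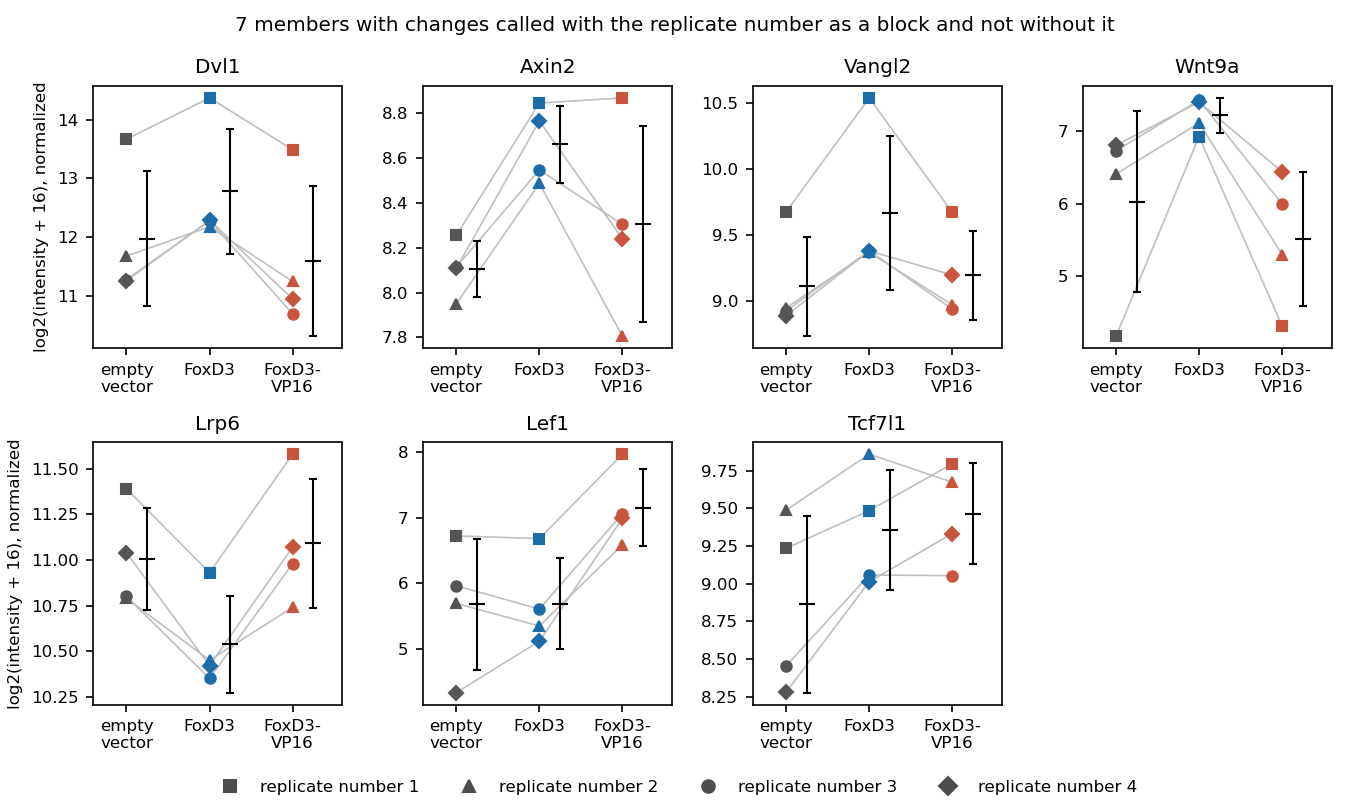
Normalized log2(intensity + 16) on each array for 7 members with differences that the blocked fit called and the fit without a block did not; lines join arrays of equal number, and bars give the mean and SD of 4 arrays. The Dvl1 arrays numbered 1 lie between 13.49 and 14.37 and the other 9 between 10.70 and 12.29.

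All 3 nuclear factors were tested, and they act as the DNA-binding partners of beta-catenin. Tcf7l2 (probe set 1429428_at) read 9.04, 8.53, 9.01 and 8.70 with the empty vector, 8.41, 8.42, 8.58 and 8.88 with FoxD3, and 9.26, 8.98, 9.42 and 9.25 with FoxD3-VP16. The FoxD3-VP16 arrays lay above all FoxD3 arrays and overlapped the empty-vector arrays. Tcf7l2 was higher with FoxD3-VP16 than with FoxD3 by 0.66 (SE 0.18, adjusted p = 0.0383), in 4 of 4 pairs. Its other 3 probe sets, all dimmer, gave 0.49, -0.05 and 0.78.

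The Tcf7l2 call was lost (adjusted p 0.0536 to 0.118) without any 1 of empty vector 4, FoxD3 1, 2 or 3, or FoxD3-VP16 1, 3 or 4. It was also lost without the 3 arrays numbered 1 (0.0552), with no filter on dim genes (0.0785) and with the mean of all probe sets (0.349).

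Lef1 passed the brightness limit through its FoxD3-VP16 arrays, since its means with the empty vector (5.68) and FoxD3 (5.69) lay below it. It read 6.72, 5.69, 5.96 and 4.33 with the empty vector, 6.68, 5.35, 5.61 and 5.12 with FoxD3, and 7.97, 6.59, 7.06 and 6.99 with FoxD3-VP16. Each FoxD3-VP16 array exceeded the arrays of its number in the other groups. The differences of 1.48 from the empty vector and 1.47 from FoxD3 had adjusted p of 0.0148 and 0.00453 in the blocked fit and 0.305 and 0.0978 without the block. With a pseudocount of 64 they were 0.89 and 0.92, and a second probe set (mean 5.15) gave 0.15 and 0.37.

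Tcf7l1, which mainly represses Wnt targets, read 9.24, 9.49, 8.46 and 8.28 with the empty vector, 9.49, 9.86, 9.06 and 9.01 with FoxD3, and 9.80, 9.67, 9.05 and 9.33 with FoxD3-VP16. Empty-vector arrays were the lowest of each number. Tcf7l1 was higher than with the empty vector by 0.49 with FoxD3 and by 0.60 with FoxD3-VP16, with adjusted p of 0.0294 and 0.0206 in the blocked fit and 0.463 and 0.526 without the block. The difference with FoxD3 was 0.29 without empty vector 4 and 0.32 without FoxD3 2. A second probe set (mean 9.10) changed by 0.09 and -0.01.

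Most ligands were dim in this line. Of 19 ligands 12 were not tested (Wnt1, Wnt2, Wnt2b, Wnt3, Wnt3a, Wnt4, Wnt5a, Wnt8a, Wnt8b, Wnt9b, Wnt10b and Wnt16), with means between 4.42 and 5.67 and no array above 6.37. None of the 7 tested ligands was called without the block in any comparison by limma, and 0, 0 and 1 had an unadjusted p under 0.05.

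Wnt9a, the ligand with that p, read 4.17, 6.41, 6.73 and 6.80 with the empty vector, 6.92, 7.11, 7.43 and 7.40 with FoxD3, and 4.31, 5.30, 5.995 and 6.44 with FoxD3-VP16. All 4 FoxD3 arrays lay above the 8 others, some of which are below the brightness limit. Wnt9a passed that limit through its FoxD3 arrays (mean 7.22). Its mean was 6.03 with the empty vector, just over the limit, and 5.51 with FoxD3-VP16, below it. Its differences were 1.19 between FoxD3 and the empty vector and -1.71 between FoxD3-VP16 and FoxD3. A second Wnt9a probe set, below the brightness limit (mean 4.8), went the other way in both, by -0.27 and 0.40. Adjusted p was 0.0376 and 0.00353 in the blocked fit and 0.344 and 0.0881 without the block. The first difference was 0.58 without the array empty vector 1, on which Wnt9a read 4.17, and 0.70 with a pseudocount of 64. The difference between the FoxD3 forms was also called without the array empty vector 1 (0.0172), without the 3 arrays numbered 1 (0.00855), on the values as deposited (0.0495) and with a pseudocount of 64 (0.0435).

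The other 6 tested ligands (Wnt5b, Wnt6, Wnt7a, Wnt7b, Wnt10a and Wnt11) changed by -0.88 to 0.82, with standard errors up to 0.56 and adjusted p from 0.433 to 0.997. Differences of this size could not be told from the spread between arrays. The block called none of the 6.

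Of the 8 secreted inhibitors, Dkk3 and Sfrp4 were tested. Dkk3, of the Dickkopf family, ranged from 8.05 to 9.88 over the 12 arrays, and Sfrp4, a soluble Frizzled-related protein that binds Wnt ligands, from 6.59 to 7.68. Neither was called in any comparison with or without the block (0 of 2 with an unadjusted p under 0.05). Dkk1, Dkk2, Dkk4, Sfrp1, Sfrp2 and Sfrp5 had means between 4.60 and 5.68 and were not tested.

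Other genes of the pathway were taken from a list of 80 names chosen by role, of which 75 were on the array and 51 tested. With FoxD3 against the empty vector, 5 rose and 0 fell (2.89% and 1.12% of all genes tested). The block called 7 up and 8 down (11.8% and 9.21%). With FoxD3-VP16 against the empty vector limma called 0, and with the block 4 up and 1 down (5.73% and 5.41%). Between FoxD3-VP16 and FoxD3, 5 were higher and 3 lower (4.44% and 5.13%), and with the block 11 and 10 (14.6% and 17.5%). The median change of the 51 was 0.05, 0.08 and -0.02 in the 3 comparisons. The other 24 had means below the brightness limit and were not tested, including genes brighter in 1 group. Rspo3 read 4.075 to 5.10 with the empty vector, 4.25 to 4.37 with FoxD3 and 6.72 to 7.16 with FoxD3-VP16. Notum read 5.05 to 6.28, 6.12 to 7.64 and 4.175 to 5.33 in the same order.

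Celsr3, a cadherin of the planar polarity core with 1 probe set, entered the tests through its FoxD3 arrays. It read 5.24, 5.23, 6.25 and 5.64 with the empty vector, 8.69, 8.30, 8.73 and 8.63 with FoxD3, and 5.96, 4.56, 5.65 and 5.61 with FoxD3-VP16. The FoxD3 arrays stood well above the 8 others, 7 of which were below the brightness limit. The change was 3.00 with FoxD3 (SE 0.34, adjusted p = 0.000502) and -3.14 between FoxD3-VP16 and FoxD3 (adjusted p = 0.000159), and both calls held under all 22 alternatives.

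The other called pathway genes changed less. Bcl9l, a co-activator that binds beta-catenin, rose with FoxD3 by 1.67 (adjusted p = 0.0106), a call lost with the mean of all probe sets (0.242). Csnk1e, a kinase that phosphorylates Dishevelled, rose by 0.74 (0.0117), a call lost without FoxD3 3 (0.0520), without FoxD3 4 (0.0524) or with the mean of all probe sets (0.122). Cxxc5, which binds Dishevelled, rose by 0.85 (0.0430), and this call was lost without any 1 of the 12 arrays other than FoxD3-VP16 1 (0.0554 to 0.144). Dact3, of the Dact family of Dishevelled partners, rose by 0.83 (0.0291), a call lost without empty vector 3 or 4 or FoxD3 1, 3 or 4 (0.0766 to 0.0951).

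Between FoxD3-VP16 and FoxD3, Wls, which carries Wnt ligands to the cell surface, was higher with FoxD3-VP16 by 0.69 (adjusted p = 0.00892; 0.0646 with the mean of all probe sets). Dact1, a Dishevelled partner, was higher by 1.27 (0.0214), a call lost without FoxD3 3 (0.0711), FoxD3 4 (0.0762) or FoxD3-VP16 2 (0.0518). Lgr6, an R-spondin receptor, was higher by 1.54 (0.0385), a call lost without any 1 of empty vector 3 or 4, FoxD3 1 or 4, or FoxD3-VP16 2, 3 or 4 (0.0514 to 0.121). Tle1, a co-repressor of TCF factors, was higher by 0.78 (0.0454), a call lost without any 1 of empty vector 2, 3 or 4, FoxD3 2, 3 or 4, or FoxD3-VP16 1, 2 or 3 (0.0525 to 0.325), and without the 3 arrays numbered 1 (0.222). Without FoxD3-VP16 1 or the arrays numbered 1, a second Tle1 probe set became the brighter and was tested in place of the first, with differences of 0.31 and 0.32 (0.30 on all 12 arrays).

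Lower with FoxD3-VP16 than with FoxD3, beside Celsr3, were Cxxc5 (log2 change -0.94, adjusted p = 0.0148; 0.0556 without FoxD3 4) and Csnk1e (-0.51, 0.0456). The Csnk1e call was lost without any 1 of FoxD3 1, 3 or 4 or FoxD3-VP16 1, 2, 3 or 4 (0.0719 to 0.132). In the blocked fit Bcl9l (-0.95, adjusted p = 0.00341) and Dact3 (-0.59, 0.00958) were also lower, against 0.0847 and 0.0749 without the block.

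Against the empty vector, Dact1 (1.11, adjusted p = 0.00403), Wls (0.43, 0.00857) and Bcl9l (0.71, 0.0420) were higher with FoxD3-VP16 in the blocked fit. Without the block they had adjusted p of 0.178, 0.283 and 0.466. Tle1 was lower with FoxD3 in the blocked fit (-0.50, 0.0286, against 0.293).

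Textbook targets of canonical Wnt signals were taken from a list of 53 names, of which 47 were on the array and 26 tested, 4 of them members counted above. With FoxD3, 1 rose and 3 fell (2.89% and 1.12% of all genes tested), and the block called 4 up and 6 down (11.8% and 9.21%). With FoxD3-VP16 against the empty vector limma called 0, and with the block 2 up and 7 down (5.73% and 5.41%). Between the FoxD3 forms 2 were higher and 3 lower with FoxD3-VP16 (4.44% and 5.13%), and with the block 5 and 9 (14.6% and 17.5%). The median changes of the 26 were 0.03, -0.23 and -0.16.

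Ccnd1, which encodes the cell-cycle protein cyclin D1, rose with FoxD3 by 1.86 (SE 0.27, adjusted p = 0.00189) and was 2.68 lower with FoxD3-VP16 than with FoxD3 (log2 change -2.68, adjusted p = 9.14e-05). Bambi, a decoy receptor of the TGF-beta family, fell with FoxD3 by 1.38 (adjusted p = 0.00104) and was 1.58 higher with FoxD3-VP16 than with FoxD3 (adjusted p = 0.000200). These 4 calls held under every alternative run. Mitf fell with FoxD3 by 1.09 (adjusted p = 0.00483) under every alternative. Ccnd1 was thus higher with FoxD3 where Bambi and Mitf were lower.

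The remaining target calls were less firm. The difference of 0.66 in Mitf between the FoxD3 forms (adjusted p = 0.0389) was lost without any 1 of FoxD3 1 or 2 or the 4 FoxD3-VP16 arrays (0.0586 to 0.105). Nrcam, a neural adhesion molecule, fell with FoxD3 by 0.60 (0.0305), a call lost without any 1 of empty vector 1, 2 or 4, the 4 FoxD3 arrays or FoxD3-VP16 3 (0.0513 to 0.108). Jun, an AP-1 factor, was lower with FoxD3-VP16 than with FoxD3 (log2 change -1.48, 0.0216), a call lost without FoxD3 3 or 4 or FoxD3-VP16 3 or 4 (0.0597 to 0.0768). Vegfa, a vascular growth factor, was lower likewise (-1.26, 0.0254), a call lost without FoxD3 1 or 2 or FoxD3-VP16 3 or 4 (0.0647 to 0.0821) and without the 3 arrays numbered 1 (0.0808).

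In the blocked fit, 4 named targets were lower with FoxD3-VP16 than with the empty vector: Ccnd1 (-0.82, adjusted p = 0.000416), Vegfa (-0.81, 0.0157), Jun (-1.01, 0.0256) and Mitf (-0.43, 0.0282). Without the block these had adjusted p of 0.271, 0.373, 0.321 and 0.436. Nrcam was 0.45 higher with FoxD3-VP16 than with FoxD3 (0.00369, against 0.0599).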

How the data were processed

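RNA of 12 samples was labelled and hybridized to 1-colour arrays. The values the authors deposited are linear intensities of 45101 probe sets, made with MAS5 per the submitters' processing notes, which give no version; dChip is named in a label. Groups and replicate numbers came from sample titles.

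From the deposited intensities, log2(intensity + 16) was computed without the 64 control probe sets and quantile-normalized, since array medians spanned 0.79 (limit 0.5). The platform table gave 34945 probe sets 1 symbol, 932 several and 9160 none; only the first kind was used. Prickle4, which shares its probe sets with another symbol, and Tcf7 were not analysed here. The brightest probe set on average stood for a gene. limma 3.58.1 (R 4.3.3; lmFit, eBayes with an intensity trend) was fitted to all 12 arrays, with 9 residual and 3.98 prior degrees of freedom, and with the number as a block with 6 and 7.30. The calculation was tested on simulated data. Alternatives were the block, no quantile normalization, pseudocounts of 1 and 64, no filter or the lowest 60% left out, the mean of all probe sets, no _x_at probe sets, array weights, no trend, each array left out, and the 3 arrays numbered 1 left out.

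The replicate numbers were taken to pair the samples from the data alone, as no label tells what they share. Across genes, deviations from the group means of 2 arrays of equal number had a correlation of 0.37 to 0.67 (12 pairs). Number 3 with number 4 gave 0.37 to 0.54 (6 pairs), and any other combination gave -0.51 to 0.12 (30 pairs).

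All arrays were described for members called without the block, or with it at a log2 change of at least 0.5. Of the pathway list and of the target list, up to 4 called genes per direction and comparison were named. Csnk1e with FoxD3 was 1 further gene, named after its values were seen. The marker lists did not follow this rule. Members and lists were chosen with earlier results of these data known. Promoter sequences are from RefSeq. Plots used matplotlib 3.10.9.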

Additional observations from a re-analysis of the deposited data

Results flagged for a closer look

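For the 29 genes of the members and other lists described most fully, the highest or lowest of 4 arrays of a group was compared with the rest of its group by Dixon's ratio of gap to range. In 9 of 87 groups 1 array stood apart beyond the 95% critical value, where chance sets about 1 in 20 groups apart. Among the members, Dvl1 stood apart on FoxD3 array 1 (14.37, next 12.29, ratio 0.952), as did Dvl2 on FoxD3 array 1 (9.63, next 9.08, ratio 0.864). Vangl2 stood apart on FoxD3 array 1 (10.54, next 9.38, ratio 0.990) and on empty-vector array 1 (9.68, next 8.95, ratio 0.926), both times as the highest. Wnt9a was low on empty-vector array 1 (4.17, next 6.41, ratio 0.850). Prickle1 was low on empty-vector array 2 (12.13, next 12.76, ratio 0.930).

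Of the other genes, Csnk1e was low on FoxD3 array 2 (11.35, next 11.61, ratio 0.832). Ccnd1 was low on empty-vector array 2 (10.58, next 11.43, ratio 0.835) and on FoxD3-VP16 array 2 (9.72, next 10.65, ratio 0.885).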

How the results depend on the processing

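Signal over background limited the tests to 33 of 57 members, and 4 arrays a group limit the precision. The members called with FoxD3 against the empty vector, with FoxD3-VP16 against the empty vector and between the FoxD3 forms numbered 2, 2 and 7. The replicate block gave 9, 6 and 14. Array weights gave 15, 13 and 19. The mean of all probe sets gave 1, 1 and 3. With the lowest 60% of genes left out they were 1, 2 and 4, since fewer genes were tested, and with no filter 1 in the first comparison. Without an intensity trend 1 was called in the second, and without the 3 arrays numbered 1 it was 4 in the first. Leaving out 1 array at a time gave 1 to 3, 1 to 2 and 5 to 8, with losses of Fzd5, Fzd7 or Tcf7l2 without the arrays named above and gains of Dvl2 without empty vector 4 and Wnt9a without empty vector 1. No called result changed its sign. Over all genes tested the calls numbered 438, 65 and 1045. They were 2297, 1217 and 3498 with the block, 4193, 3465 and 4455 with array weights, and 870, 277 and 1815 without the 3 arrays numbered 1. With the lowest 60% left out the first was 274. Leaving out 1 array gave 197 to 555, 13 to 82 and 602 to 1214. Counts more than 1.5 times lower came without array 3 or 4 of either group compared and, for FoxD3-VP16 against the empty vector, also without FoxD3 3 or 4. The other causes were not tested. On the values as deposited 3, 2 and 8 members were called, with Dvl2 added to the first and Wnt9a to the last. With no filter, the calls of Cxxc5 and Dact3 with FoxD3 and of Lgr6, Tle1, Csnk1e and Mitf between the FoxD3 forms were also lost (adjusted p 0.0572 to 0.0858). With the mean of all probe sets, so were those of Lgr6, Tle1, Csnk1e and Mitf between the FoxD3 forms and of Nrcam with FoxD3 (0.0591 to 0.115). The alternatives for genes of the other lists were added after seeing the data.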
